A study of Gallus gallus with 4 samples.

Results

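Keratins and the regulators of surface epithelium were followed in chick area vasculosa, the vascular zone of the yolk sac, where blood cells and vessels first appear. The set held 10 named genes, taken by symbol from a table of 17108 rows, and all 10 had a row. They were the keratins KRT19, KRT18, KRT8 and KRT7, the adhesion gene EPCAM, the desmosome gene DSP, and the transcription factor genes TFAP2A, TFAP2C, GRHL2 and GRHL3. RNA was sequenced from area vasculosa dissected at 4 successive stages of the Hamburger-Hamilton series, HH10 to HH13, each as 1 library. No genetic change or agent was named in the labels, the breed and sex were not given, and the sources used here do not say how many embryos stood behind each library. The stages have no replicates, and values are given without a standard deviation.

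Keratins are intermediate filament proteins of epithelial cells. A filament is built from pairs of 1 type I chain and 1 type II chain, so a cell needs both. KRT18 and KRT19 are type I chains and KRT8 and KRT7 are type II chains of simple, single-layered epithelia. Desmosomes anchor these filaments at cell contacts through desmoplakin, the product of DSP, and EPCAM is a cell surface adhesion protein of epithelia. The grainyhead-like factors GRHL2 and GRHL3 and the AP-2 factors TFAP2A and TFAP2C are known, mainly from mouse and human, as regulators of surface ectoderm, and TFAP2A also acts in neural crest. The area vasculosa holds ectoderm, mesoderm and yolk sac endoderm, and more than one of these layers can make simple keratins. In bulk tissue, fewer cells of a type and less RNA per cell cannot be told apart.

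Values are FPKM, fragments scaled to transcript length and library size, as the authors deposited them. They are per length, so levels of different genes can be set side by side. Read depth is unknown. Differences between libraries are given as log2(FPKM + 1), later stage minus earlier, a scale that makes differences of weakly expressed genes look smaller. A difference of at least 2-fold on that scale was used as a mark of size, with no p-value.

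The libraries differed in ways that bear on all genes. Total FPKM lay between 762831 and 952203, and the HH10 library stood apart. Rows of ribosomal RNA took 6.55% of its total, against 0.574% to 1.49% in the later libraries, and HINTW, a gene of the female-specific W chromosome, was listed at 0 in HH10 and had 1530 to 2389 FPKM in the later ones. For that reason the counts and medians against HH10 stand beside values without it, from HH13 against HH11 and from HH11 against the mean of HH12 and HH13. HH11 in turn had the lowest total FPKM and the lowest summed markers of endoderm, blood and endothelium. Values that rest on HH11 thus carry a difference between libraries too. None of the 10 genes has its row on the chromosomes W or Z, but KRT18 lies on an unplaced scaffold, so its chromosome is not known here.

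The simple keratins were among the most abundant transcripts of the tissue. KRT19 had 2075 FPKM at HH10, 4053 at HH11, 4039 at HH12 and 3390 at HH13. The HH10 library was low and the 3 later ones lay close together. By level KRT19 was number 51 of 17018 genes at HH10, 21 at HH11, 24 at HH12 and 31 at HH13, and it alone took between 0.218% and 0.531% of the total FPKM. Its partner chain KRT8 had 808, 695, 857 and 1060 FPKM in stage order, with the low value in HH11. KRT18 had 647, 1163, 960 and 1191 FPKM, with the low value in HH10. These 2 genes held ranks between 102 and 157 in every library. KRT7 had 0.0907 FPKM in HH10 and was listed at 0 in the other libraries. It is the 1 gene of the set that did not reach 1 FPKM in any library, so 9 of the 10 enter the comparisons.

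**Figure D1:**
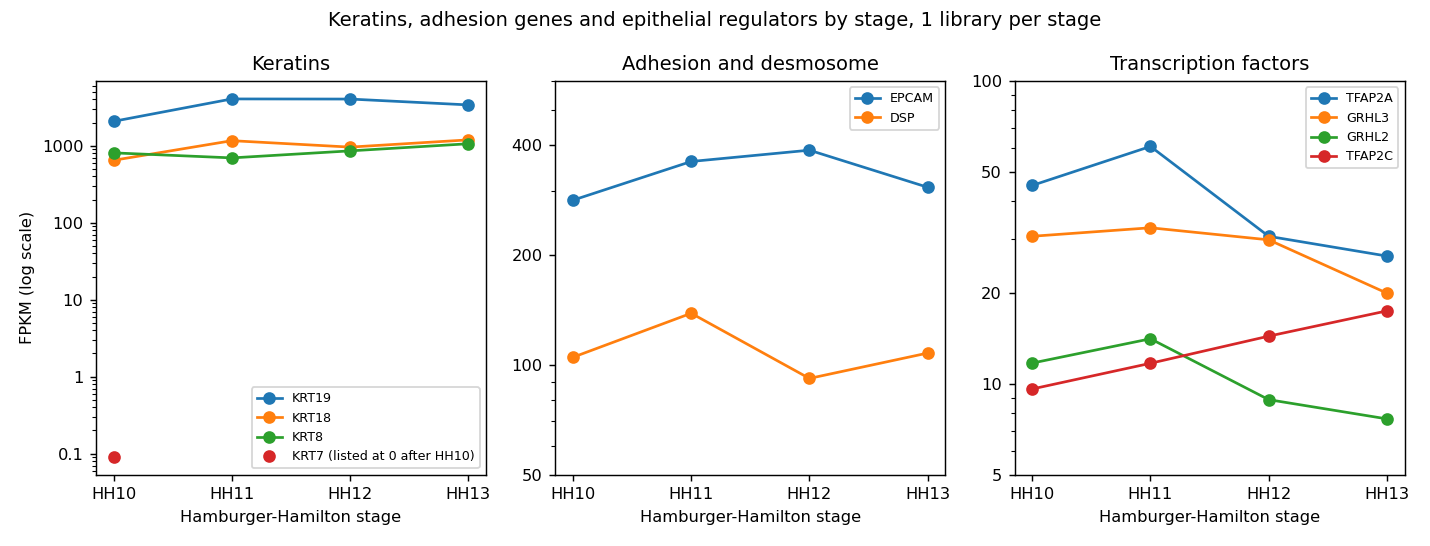
FPKM on a log axis against stage, in a panel each for the keratins, the adhesion and desmosome genes and the transcription factors, with a point for each library. KRT19 lies above KRT18 and KRT8 in all 4 libraries, and TFAP2A and TFAP2C lie closer together in HH13 (26.4 and 17.4 FPKM) than in HH10 (45.2 and 9.61 FPKM).

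The adhesion genes stood below KRT19, KRT18 and KRT8 in level. EPCAM had 283, 361, 388 and 307 FPKM in stage order, a span of 1.37-fold from the lowest to the highest library, the narrowest of the 9 genes. DSP had 105, 139, 91.8 and 108 FPKM, with HH11 the high library. Neither had a library at a distance of 2-fold from another, which also held for 79.8% of genes with a mean of at least 5 FPKM. Their ranges were 0.45 and 0.59 log2 units, beside a median of 0.62 over all genes kept.

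The 4 transcription factor genes were present at lower levels. TFAP2A had 45.2, 60.8, 30.7 and 26.4 FPKM in stage order, so that HH10 and HH11 both lay above HH12 and HH13. TFAP2C had 9.61, 11.7, 14.4 and 17.4 FPKM, higher at each later stage. GRHL3 had 30.7, 32.7, 29.9 and 19.9 FPKM, with 3 similar libraries and a low HH13. GRHL2 had 11.7, 14.1, 8.86 and 7.65 FPKM, with HH12 and HH13 below HH10 and HH11. In HH10 and HH11 the order of level was TFAP2A, GRHL3, GRHL2, TFAP2C, and in HH12 and HH13 TFAP2C stood above GRHL2. TFAP2A and GRHL3 differed little in HH12, at 30.7 and 29.9 FPKM, and with 1 library per stage no spread is known against which to set such a gap.

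Per the deposited loci of build galGal4, TFAP2A (ENSGALG00000012775) lies on chromosome 2 from 63369713 to 63390425 and DSP (ENSGALG00000012790) on the same chromosome from 64611442 to 64640267. GRHL2 (ENSGALG00000014208) lies on chromosome 2 from 128591603 to 128652059, GRHL3 (ENSGALG00000004249) on chromosome 23 from 5643783 to 5679530, TFAP2C (ENSGALG00000007690) on chromosome 20 from 12282246 to 12291290, and EPCAM (ENSGALG00000008969) on chromosome 3 from 8534387 to 8539545. KRT19 (ENSGALG00000019719) carries a locus on chromosome 27 from 4500721 to 4644100 that it shares with 8 other rows, most of them type I keratins, so these are bounds of the locus and not of the gene. KRT8 (ENSGALG00000012169) and KRT7 (ENSGALG00000028089) lie on the linkage group LGE22C19W28_E50C23, from 543750 to 550149 and from 657674 to 663371. KRT18 (ENSGALG00000027217) lies on an unplaced scaffold, from 21 to 1915. Keratins resemble one another, so how reads were divided among them is uncertain, and the level of KRT18 depends on how complete its short locus is.

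Between the ends of the series, HH13 against HH10, the keratins and TFAP2C stood higher and the other 3 regulators lower. KRT18 had 1191 FPKM in HH13 and 647 in HH10, a log2 difference of 0.88, and KRT19 had 3390 FPKM in HH13 and 2075 in HH10, a difference of 0.71. TFAP2C was higher by 0.79. TFAP2A, GRHL3 and GRHL2 were lower in HH13, by log2 differences of -0.75, -0.60 and -0.55. KRT8 differed by 0.39, EPCAM by 0.12 and DSP by 0.04. Of the 9 genes 0 passed 2-fold upward and 0 downward, against background shares of 9.39% and 4.06% of 11773 genes. Their median was 0.12, against 0.00 over all genes. That median was -0.01 after scaling to an equal total that left out globins, ribosomal RNA rows and rows above 5% of a library, where the median of all genes was -0.11, and EPCAM and DSP then lay below 0 at -0.01 and -0.08.

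Against HH11 in place of HH10, TFAP2A had the widest difference of the 9. It had 26.4 FPKM in HH13 and 60.8 in HH11, a log2 difference of -1.17, and was the 1 gene of the set past 2-fold, where the background shares were 5.39% downward and 13.1% upward. The authors' deposited table gives this pair a p of 0.0187 and a q of 0.544. GRHL2 and GRHL3 were lower as well, at -0.80 and -0.69, and KRT8 and TFAP2C higher, at 0.61 and 0.54. KRT19, EPCAM and DSP, higher in HH13 than in HH10, were lower in HH13 than in HH11, at -0.26, -0.23 and -0.36. The median of the 9 genes was then -0.26, against -0.03 over all genes. In HH12 against HH10, which leaves out HH11, the differences ran from -0.54 for TFAP2A to 0.96 for KRT19. The median there was 0.09, against 0.02 over all genes. Of the 9 genes 0 passed 2-fold upward and 0 downward, beside 300 and 306 of all 11773 genes.

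In HH11 against HH10 most of these genes were higher, within 2-fold. KRT19 had 4053 FPKM in HH11 and 2075 in HH10, a log2 difference of 0.97, just short of 2-fold, and the authors' deposited table gives this pair a p of 0.374. KRT18 had 1163 FPKM in HH11 and 647 in HH10, a difference of 0.85. TFAP2A was higher by 0.42, DSP by 0.40 and EPCAM by 0.35. KRT8, at -0.22, was the 1 gene of the 9 below 0, where 6103 of all 11773 genes lay above 0 and 5643 below. Of the 9 genes 0 passed 2-fold upward and 0 downward, against background shares of 2.17% and 4.32% of all genes, and their median was 0.35 against 0.01. With every library set to the same total FPKM, which moved the median of all genes to 0.30 at this step, KRT19 and KRT18 were past 2-fold at 1.29 and 1.16, and KRT8 lay above 0 at 0.10. Without HH10, in HH11 against the mean of HH12 and HH13, most of these differences were small. KRT19 stood at 0.13, KRT18 at 0.12 and EPCAM at 0.07, and the median of the 9 genes was 0.13, against 0.02 over all genes. DSP stood at 0.47 and GRHL2 at 0.71, while KRT8 and TFAP2C lay below 0, at -0.46 and -0.41. TFAP2A was higher in HH11 by 1.07, the 1 gene of the 9 past 2-fold where the background shares were 2.83% upward and 8.02% downward.

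In HH12 against HH11 the widest differences were those of TFAP2A, GRHL2 and DSP, all lower in HH12. TFAP2A had 30.7 FPKM in HH12 and 60.8 in HH11, a log2 difference of -0.96. GRHL2 was lower, at -0.61, as was DSP, at -0.59. KRT18 stood at -0.28 and GRHL3 at -0.13, while KRT8 was higher by 0.30 and TFAP2C by 0.28. KRT19 was level, at 4039 FPKM in HH12 and 4053 in HH11. Of the 9 genes 0 passed 2-fold upward and 0 downward, against background shares of 4.42% and 1.58% of all genes. Set to the same total FPKM, TFAP2A was past 2-fold here at -1.09, beside a median of all genes of -0.11. The authors' deposited table gives TFAP2A a p of 0.053 and a q of 0.858 for this pair.

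Between HH13 and HH12 GRHL3 had the widest difference of the 9, with 19.9 FPKM in HH13 and 29.9 in HH12, a log2 difference of -0.56. EPCAM and KRT19 were lower, at -0.34 and -0.25. KRT18, KRT8 and TFAP2C were higher, by 0.31, 0.31 and 0.26. Of the 9 genes 0 passed 2-fold upward and 0 downward, against background shares of 8.53% and 2.95% of all genes.

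**Figure D2:**
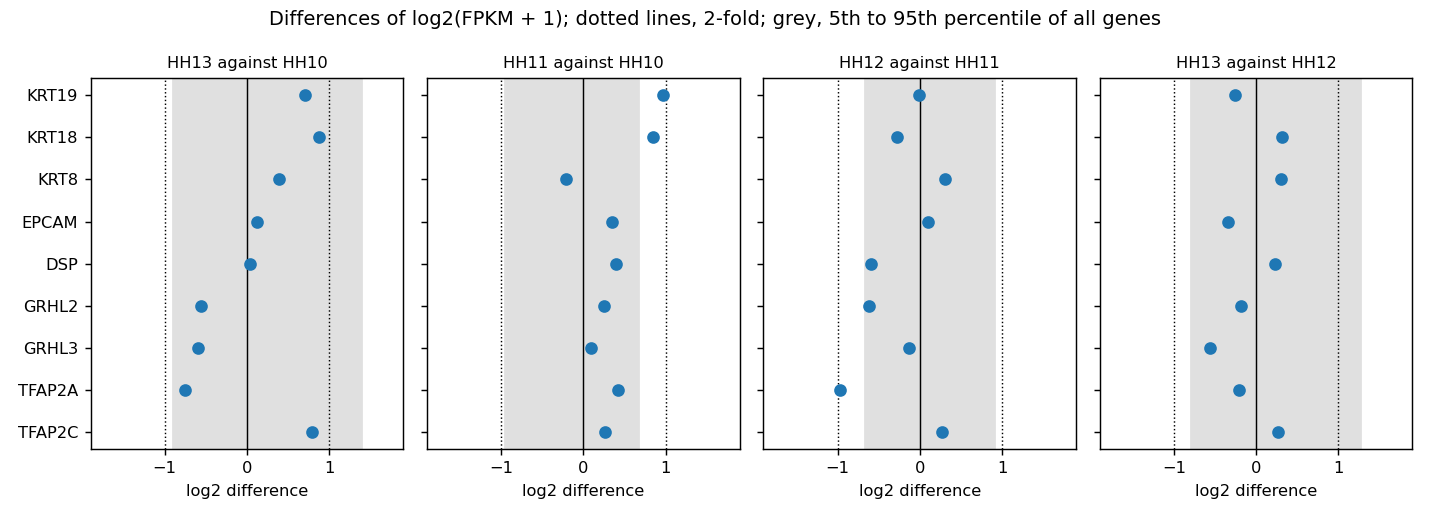
Differences of log2(FPKM + 1) for the 9 genes that reached 1 FPKM, in 4 comparisons of 2 libraries each, with dotted lines at 2-fold and a grey band from the 5th to the 95th percentile of all 11773 genes. KRT19 and KRT18 lie right of the band in HH11 against HH10 and TFAP2A left of it in HH12 against HH11, and no point lies past the dotted lines.

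HH11 was the highest library for 5 of the 9 genes, TFAP2A, GRHL2, GRHL3, DSP and KRT19. KRT8, KRT18 and TFAP2C were highest in HH13 and EPCAM in HH12. Of all genes kept, 28.4% were highest in HH11 and 33.6% in HH13. Against the mean of the other 3 stages, HH11 was higher by 0.85 for TFAP2A, 0.55 for GRHL2 and 0.45 for DSP, and lower for KRT8, at -0.38, and TFAP2C, at -0.19. The median was 0.36 (0.13 with HH10 left out of the other stages), against 0.02 over all genes, with 0 of the 9 genes past 2-fold upward and 0 downward and background shares of 2.13% and 6.43%. Over the 4 libraries, 8 of the 9 genes stayed within 2-fold, TFAP2A being the other, and so did 79.8% of the 8527 genes with a mean of at least 5 FPKM. The median range from lowest to highest library was wider for the 9 genes, at 0.79 log2 units, than for all genes kept, at 0.62.

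A straight line over the stages was fitted to every gene with limma. The smallest p among the 9 genes was that of TFAP2C, with a slope of 0.27 ± 0.08 log2 units per stage (SE) and an adjusted p of 0.523. TFAP2A had a slope of -0.32 ± 0.14 and an adjusted p of 0.527 by limma. With 1 library per stage, these errors measure the scatter of the 4 libraries about a straight line, adjusted by limma toward that of other genes. They do not measure the spread between embryos or libraries of 1 stage. The fit called 0 of the 9 genes and 0% of all genes after Benjamini-Hochberg adjustment, and 9.44% of all genes and 1 of the 9 had an unadjusted p under 0.05. In the authors' deposited table, which holds 6 pairs of stages, 1 of the 60 pairs of these 10 genes had a p under 0.05 and 0 had a q under 0.05.

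Ratios between genes of 1 library do not depend on how the libraries were scaled. The balance of type I to type II chains was widest in HH11. KRT18 and KRT19 together had 3.37 times the FPKM of KRT8 at HH10, 7.51 times at HH11, 5.83 times at HH12 and 4.32 times at HH13. KRT19 alone had 2.57, 5.83, 4.71 and 3.20 times the FPKM of KRT8. KRT18 had 0.801, 1.67, 1.12 and 1.12 times. Both type I chains were thus higher relative to KRT8 in HH11 than in any other library. Over 8 named type I and 7 named type II keratins, KRT78 among the latter, the ratio had the same order, at 3.37, 7.46, 5.83 and 4.36. KRT18 and KRT19 made 99.3% of the type I sum in HH10 and 97.9% in HH13. KRT8 made 99.3% and 98.8% of the type II sum.

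The balance of the AP-2 pair differed between the earlier and the later stages. TFAP2A had 4.70 times the FPKM of TFAP2C in HH10 and 5.21 times in HH11, then 2.14 times in HH12 and 1.52 times in HH13. The grainyhead pair kept its balance more nearly, with GRHL3 at 2.62, 2.33, 3.37 and 2.60 times GRHL2. DSP had 0.371, 0.384, 0.237 and 0.351 times the FPKM of EPCAM, with HH12 the low library.

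**Figure D3:**
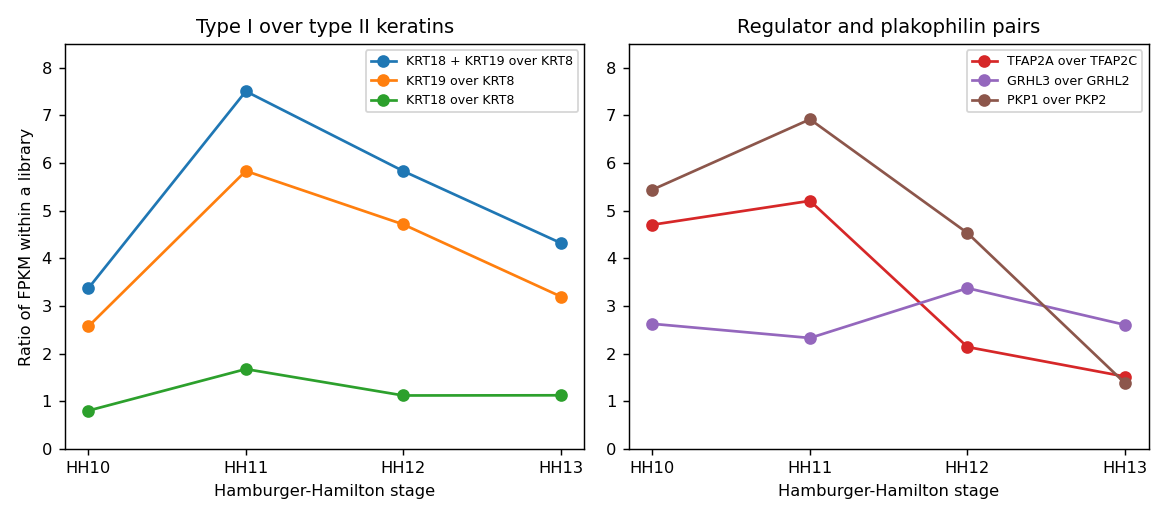
Ratios of FPKM within each library against stage, on axes that start at 0, for type I over type II keratins (left) and for pairs of regulators and plakophilins (right). The ratio of KRT18 and KRT19 to KRT8 is highest in HH11 at 7.51, and that of TFAP2A to TFAP2C is lower in HH12 and HH13, at 2.14 and 1.52, than in HH10 and HH11.

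Other keratins were far lower. Of 22 symbols looked up, 10 had a row and 8 reached 1 FPKM. KRT78, summed with the type II chains above, was not among these symbols. Between HH13 and HH10, 3 of the 8 passed 2-fold upward and 0 downward (median 0.36), where the shares over all genes were 9.39% and 4.06%. Between HH13 and HH11 the counts were 3 and 2, with a median of -0.19 and shares over all genes of 13.1% and 5.39%. KRT14, a type I keratin of the basal layer of stratified epithelia in mammals, had 9.29, 4.93, 28.8 and 85.9 FPKM in stage order, a log2 difference of 3.08 for HH13 against HH10. Its usual type II partner KRT5 stayed between 0.346 and 1.58 FPKM. KRT14 shares the locus of KRT19, and the authors' deposited table gives its pair of HH13 and HH10 a p of 0.275. KRT20, in mammals a keratin of gut lining, had 1.53, 6.76, 8.68 and 0.540 FPKM, low in HH10 and HH13. KRT222 had 1.16, 0.233, 0.867 and 4.01 FPKM.

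The desmosome partners of DSP were all above 0 at the first step and split afterwards. Of 14 symbols, 7 had a row and reached 1 FPKM. In HH11 against HH10 0 of the 7 were past 2-fold in either direction, with differences from 0.02 to 0.89 and a median of 0.36, where 2.17% of all genes were higher and 4.32% lower. Of all 11773 genes, 6103 lay above 0 at that step. In HH11 against the mean of HH12 and HH13, 5 of the 7 lay above 0 and 2 were past 2-fold upward. Of all genes, 6074 lay above 0 there and 2.83% were past 2-fold upward. JUP, plakoglobin, which ties desmoplakin to the desmosomal cadherins, had 88.5, 165, 112 and 123 FPKM. PKP1 and PKP2, plakophilins that also bind desmoplakin, went apart in HH13 against HH10. PKP1 had 92.2, 147, 96.8 and 51.0 FPKM and PKP2 had 16.9, 21.3, 21.4 and 37.0, with log2 differences of -0.84 and 1.08. PKP1 had 5.44 times the FPKM of PKP2 at HH10, 6.92 times at HH11, 4.53 times at HH12 and 1.38 times at HH13. PKP3 was near level, between 13.3 and 18.9 FPKM.

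Most junction genes stayed within 2-fold over the 4 libraries, MARVELD3 being the exception, and so did 74.8% of all genes kept. Of 17 symbols, 13 had a row and 12 reached 1 FPKM. In HH13 against HH10, 0 of the 12 were past 2-fold in either direction, with a median of 0.05, where 9.39% of all genes were higher and 4.06% lower. In HH13 against HH11, 1 was higher and 0 lower, with a median of -0.27 and shares over all genes of 13.1% and 5.39%. CLDN1, a claudin of tight junctions, had 457, 568, 462 and 476 FPKM. CGN, cingulin of the tight junction plaque, had 67.7, 106, 79.0 and 80.2 FPKM. MARVELD3, a tight junction membrane protein, had 2.97 FPKM in HH11 and 7.81 in HH10, a log2 difference of -1.15. It had 15.3 FPKM in HH13, which lay above HH11 by 2.04 and above HH12 by 1.68 log2 units. CDH1, E-cadherin, named after its values were seen, had 52.5, 47.2, 64.0 and 90.9 FPKM, with HH13 above HH11 by 0.93. MARVELD2 of this list lies on chromosome Z.

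Other regulators of epithelium, 2 splicing factors among them, included genes that were lower in HH13. Of 19 symbols, 17 had a row and 15 reached 1 FPKM. Between HH13 and HH10, 0 of the 15 passed 2-fold upward and 3 downward (median -0.11), beside 9.39% and 4.06% of all genes. Between HH13 and HH11 the counts were 1 and 3 (median -0.43), beside 13.1% and 5.39%. KLF5, a Krüppel-like factor of gut and skin epithelium, had 43.4, 78.5, 42.0 and 11.3 FPKM, a log2 difference of -1.85. The authors' deposited table gives KLF5 a q of 0.0974 for HH13 and HH10 and a q of 0.0109 for HH13 and HH11. KLF4, also among the 3, lies on chromosome Z and had 0.791 FPKM in HH13 and 3.04 in HH10. TP63 had 3.29, 2.96, 2.86 and 6.40 FPKM, and EHF had 1.51, 4.77, 3.09 and 1.01 FPKM. TFAP2B had 2.14 FPKM in HH13 and 0.894 in HH10.

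Genes that fix epithelium to its basement membrane went different ways. Of 9 symbols, 7 had a row and reached 1 FPKM. In HH13, 5 of the 7 lay above HH10 and 2 below, and 0 passed 2-fold upward and 2 downward (median 0.13), beside 9.39% and 4.06% of all genes. Against HH11, 2 lay above and 5 below, with 0 and 2 past 2-fold (median -0.21), beside 13.1% and 5.39%. Of all 11773 genes, 5862 lay above HH10 in HH13 and 5885 below, and 5635 lay above HH11 and 6107 below. LAMB3, a laminin chain of epithelial basement membranes, was among the lower genes, with 13.0, 17.01, 10.2 and 4.73 FPKM and a log2 difference of -1.29. LAMA3, another laminin chain of epithelia, reached no more than 1.11 FPKM. ITGB4, an integrin chain of hemidesmosomes, had 1.496, 2.46, 1.36 and 2.68 FPKM.

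A further list held surface proteases, their inhibitors and a trafficking gene. Of 10 symbols, 6 had a row and 5 reached 1 FPKM. In HH13, 0 of the 5 were past 2-fold in either direction against HH10 (median 0.07) and 0 against HH11 (median -0.16). Of all genes, 9.39% were higher and 4.06% lower against HH10, and 13.1% and 5.39% against HH11. SPINT1, an inhibitor of matriptase, had 100.01, 97.3, 91.9 and 91.0 FPKM. TMPRSS2, a membrane serine protease, had 40.1, 37.3, 35.4 and 74.1 FPKM. In HH13 it lay above HH12 by 1.05 log2 units, the 1 of the 5 past 2-fold there, beside 8.53% of all genes upward. RAB25, an epithelial trafficking protein, had 9.26, 16.3, 20.5 and 14.5 FPKM. In HH12 it lay above HH10 by 1.07, the 1 of the 5 past 2-fold there, beside 300 of all 11773 genes upward. CDCP1 had 7.27 FPKM in HH13 and 9.65 in HH10.

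In HH11 against HH10 the medians of these 6 lists lay between 0.30 and 0.55, beside 0.01 over all genes. Of the 54 genes of the lists that reached 1 FPKM, 3 passed 2-fold upward, KRT20 and EHF among them, and 1, MARVELD3, downward, beside 2.17% and 4.32% of all genes. Without HH10, in HH11 against the mean of HH12 and HH13, the median of the other keratins was below 0, at -0.10. The remaining medians were 0.49 for desmosome genes, 0.31 for the other regulators, 0.26 for junction genes, 0.23 for basement membrane genes and 0.09 for the proteases, beside 0.02 over all genes.

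**Figure D4:**
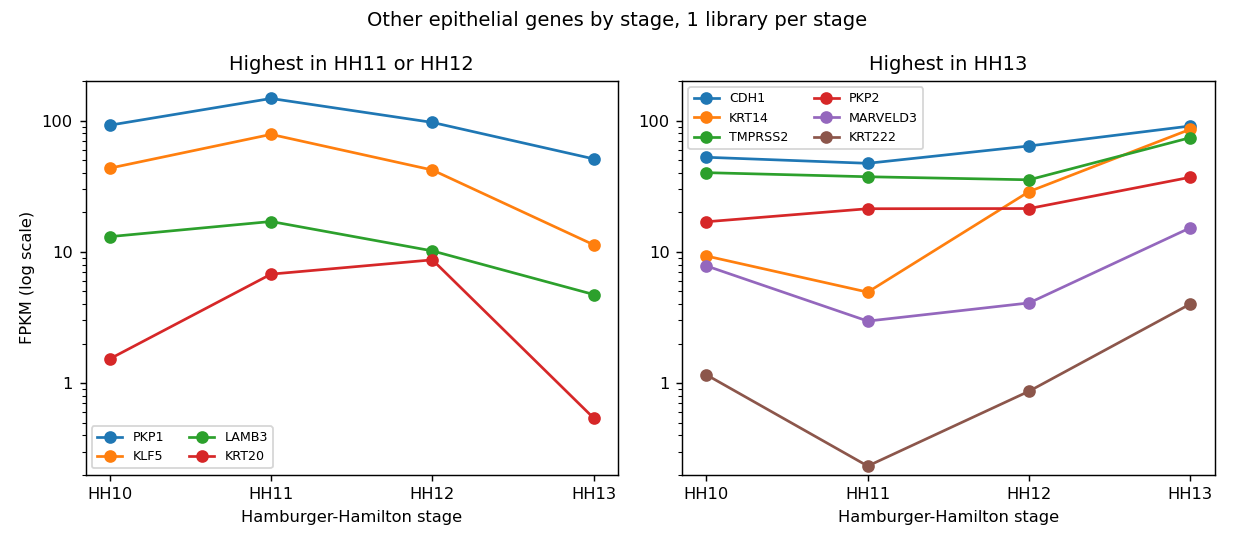
FPKM on a log axis against stage for epithelial genes outside the set, with those highest in HH11 or HH12 on the left and those highest in HH13 on the right. All 4 genes on the left are lowest in HH13, KRT20 at 0.540 FPKM, while KRT14 on the right stands at 85.9 FPKM in HH13 and 4.93 in HH11.

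Markers of the labelled tissue, its endoderm, vessels and blood, were present in every library, and their levels differed between the same libraries. In HH11 against HH10, 6 of 8 yolk sac endoderm markers were at least 2-fold lower and 0 higher, with a median of -1.56. Their summed level was 12978, 5476, 16976 and 48092 FPKM in stage order, most of it APOA1 and TTR. GATA6 was the 1 endoderm marker above 0 at this step, with 83.1, 99.4, 78.2 and 66.4 FPKM in stage order. Blood markers had 4 of 5 at least 2-fold lower and a median of -2.00, with sums of 1310, 257, 13105 and 29356 FPKM. Endothelial markers had 3 of 7 at least 2-fold lower and a median of -0.96, with sums of 62.6, 29.2, 52.9 and 143 FPKM. Mesothelial and lateral plate markers had 2 of 6 at least 2-fold lower and a median of -0.89, with sums of 124, 76.4, 118 and 436 FPKM. Mesenchymal markers had 3 of 7 at least 2-fold lower and a median of -0.96, with sums of 632, 648, 635 and 921 FPKM, most of it FN1. The share of all genes at least 2-fold lower was 4.32%. Against the mean of HH12 and HH13 the medians in HH11 were also below 0, at -1.96 for endoderm, -5.54 for blood, -1.59 for endothelial, -1.07 for mesothelial and lateral plate and -0.67 for mesenchymal markers. HBE1, a globin, was listed at 0 in HH10 and HH11, and the other rows of these lists were above 0 in every library apart from a second HBZ row. The part that these other cells have in the level of the keratins and their regulators was not tested.

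In HH13 against HH10 all 5 of these lists had medians above 0. At least 2-fold higher were 5 of 8 endoderm markers, 5 of 5 blood markers, 5 of 7 endothelial markers and 2 of 6 mesothelial and lateral plate markers, with medians of 1.60, 4.83, 1.13 and 0.86, beside 9.39% of all genes. Of the mesothelial and lateral plate markers 1 was at least 2-fold lower. Mesenchymal markers had a median of 0.54, and of the 7 measured 1 passed 2-fold upward and 1 downward. Against HH11 the medians in HH13 were 2.67 for endoderm, 6.31 for blood, 2.09 for endothelial, 1.76 for mesothelial and lateral plate and 1.55 for mesenchymal markers. SNAI1 and SNAI2, repressors of the epithelial state, went opposite ways. SNAI1 had 30.2, 53.2, 33.6 and 12.7 FPKM and SNAI2 had 14.8, 4.87, 14.5 and 48.7 FPKM. The neural and neural crest list, which bears on TFAP2A, was at low level, with 1 of 5 at least 2-fold lower and 0 higher both in HH11 (median -0.64) and in HH13 (median -0.34) against HH10. The shares over all genes were 4.32% lower and 2.17% higher in HH11, and 4.06% lower and 9.39% higher in HH13. Its median changed sign without HH10: in HH13 against HH11 all 5 lay above 0, with a median of 0.29, against -0.03 over all genes. Of all 11773 genes, 5635 lay above 0. There 1 of the 5 was at least 2-fold higher and 0 lower, beside 13.1% and 5.39% of all genes. That gene was TFAP2B, with 0.123 FPKM in HH11, which is also the 1 counted higher there among the other regulators of epithelium. In HH11 against the mean of HH12 and HH13, 4 of the 5 lay below 0, with a median of -0.11. Of all genes 5681 lay below 0, and their median was 0.02. Its 6 rows summed to 29.5, 16.2, 13.4 and 32.2 FPKM, of which ETS1, also a gene of vessels, had 20.9, 13.8, 11.4 and 26.7. SOX10, which marks neural crest, had no more than 0.423 FPKM in any library, and PAX3 no more than 1.02. SOX2 was listed at 0 in HH12.

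**Figure D5:**
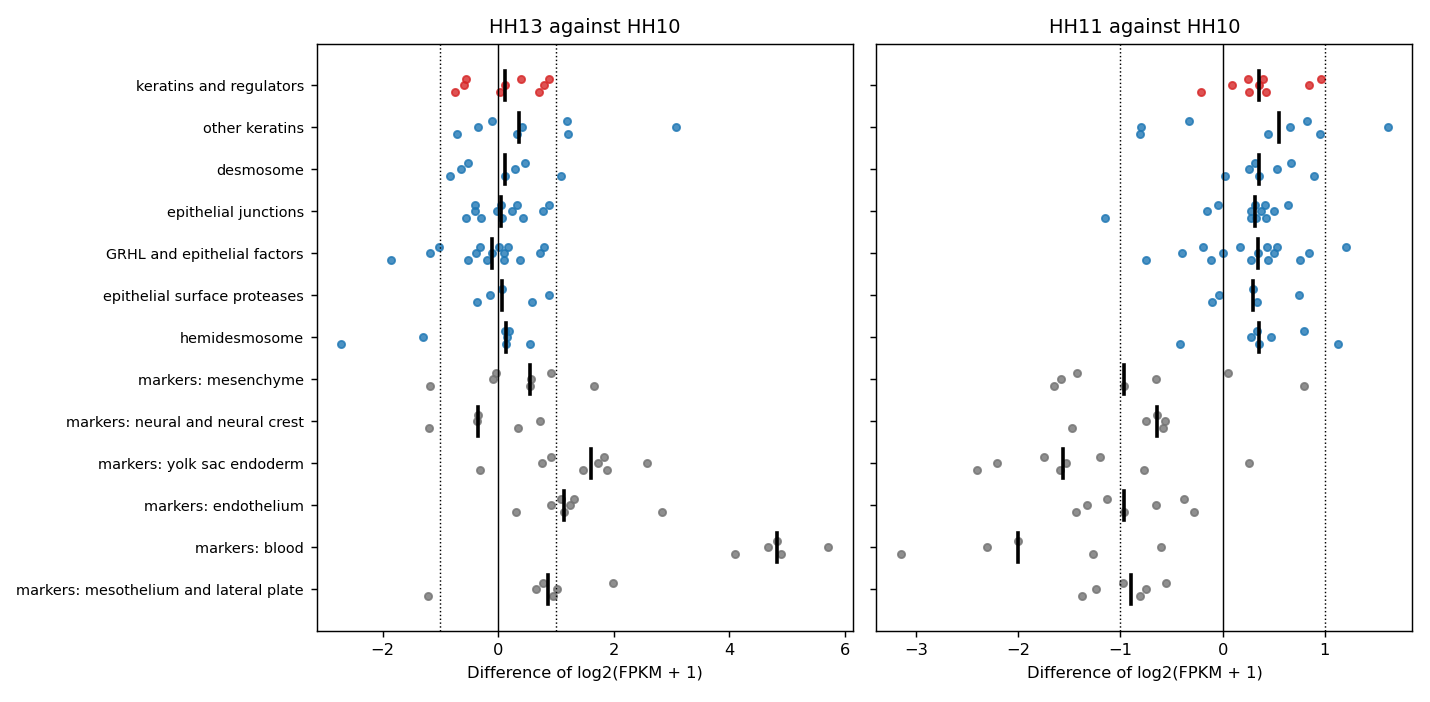
Differences of log2(FPKM + 1) for every gene of each list that reached 1 FPKM, in HH13 against HH10 (left) and HH11 against HH10 (right), with a bar at each median and dotted lines at 2-fold. Marker lists in grey lie mostly left of 0 in HH11 against HH10, while the medians of the keratins and regulators (red) and of the epithelial lists (blue) lie between 0.30 and 0.55.

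The genes with courses most like those of the set were named by the root mean square distance between centred log2(FPKM + 1) profiles over the 4 libraries, among 3128 candidate genes with a symbol, a mean of at least 10 FPKM and a range of at least 0.5 log2 units. Nearest to KRT19 were HHLA2 at 0.055, RGS2 at 0.091, TAGLN2 at 0.096, AACS at 0.098 and EIF4A2 at 0.11. HHLA2 had 9.40, 21.0, 19.4 and 17.4 FPKM and TAGLN2 had 63.3, 127, 107 and 96.9 FPKM, both low in HH10. Nearest to EPCAM were WRB, NSDHL, EXOC2, DDA1 and GNPTG, at distances from 0.042 to 0.051. Nearest to the mean of the 9 genes were INSIG1, PACS1, BAG3, CDK10 and TSSC1, at distances from 0.053 to 0.070. With 4 libraries many genes share a course, and these distances are a description.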

How the data were processed

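The submitters' processing notes name TopHat2 2.0.8, Cufflinks, Cuffdiff and build galGal4. Which annotation release and library scaling were chosen is not given in the sources used. Per the file headers, the authors deposited FPKM for each gene and library and, for 6 pairs of stages, a p-value and a q-value, which rest on no replicate. The values are no counts, so count tests were left out, depth is unknown, and an exact 0 can be a failed estimate.

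Where several rows had the same symbol (76 symbols) their FPKM were added, leaving 17018 genes, and 11773 of them reached 1 FPKM in at least 1 library. Deposited starts count from 0 and were printed 1 higher. A line over stage number was fitted to log2(FPKM + 1) with limma 3.58.1 in R 4.3.3 (eBayes with trend, 2 residual degrees of freedom, two-sided, Benjamini-Hochberg over 11773 genes, threshold 0.05), and was tested on simulated data. Python 3.11.15 with pandas 2.3.3 did the rest. The set and the 12 other lists were chosen with earlier results of these data known. They hold 147 entries, 102 with a row. From each list the genes named were those with the highest mean and the largest differences up and down for HH13 and for HH11 against HH10. Other genes were picked with their values known. Alternatives tried were pseudocounts, filters, scalings, duplicate rows, a 4-fold rule and stages left out. Promoter and protein sequences were not analysed here. A few genes that the naming rule picks are left out here.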

Additional observations from a re-analysis of the deposited data

How the results depend on the processing

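No paired analysis was possible because each stage had 1 library. The counts of the 9 genes past 2-fold and their medians kept their place under the pseudocounts, filters, median-of-ratios scaling and the use of the highest row per symbol. At the same total FPKM, 2 of the 9 were at least 2-fold higher in HH11 than in HH10, beside 500 of all 11773 genes. Against the mean of the other stages 1 was higher in HH11, and 1 was lower in HH12 than in HH11. The medians of all genes in these comparisons were then 0.30, 0.22 and -0.11. The gene lower in HH12 was also past 2-fold at the same total without globins, ribosomal RNA rows and rows above 5% of a library. There the median of all genes was -0.08. Under the last scaling the median for HH13 against HH10 was -0.0058. Alternatives chosen after seeing the data left out HH10. HH13 against HH11 gave 1 gene lower and a median of -0.26, and HH11 against the mean of HH12 and HH13 gave 1 higher and a median of 0.13, against 0.35 with HH10 in their place, with 944 of all genes lower. The cause of these shifts was not tested.

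Over the whole table, 1106 genes passed 2-fold upward and 478 downward in HH13 against HH10, 255 and 509 in HH11 against HH10, 520 and 186 in HH12 against HH11, 1004 and 347 in HH13 against HH12, and 251 and 757 in HH11 against the mean of the other stages. With a pseudocount of 5 these counts were 541 and 207, 109 and 194, 228 and 54, 403 and 172, and 112 and 343. With a pseudocount of 0.1 those that moved by over 1.5 times were 426 and 1025 for HH11 against HH10, 893 and 407 for HH12 against HH11, 1542 higher for HH13 against HH12, and 447 and 1280 for HH11 against the mean. With a 4-fold rule the counts were 248 and 102, 63 and 83, 107 and 33, 130 and 87, and 48 and 161. At the same total FPKM, HH11 had 500 higher and 322 lower against HH10 and 421 higher against the mean.

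By limma the stage trend called 0 genes (smallest adjusted p 0.523, 1111 genes under an unadjusted 0.05), 1 gene at the same total FPKM, 2 for the mean of HH12 and HH13 against the mean of HH10 and HH11, and between 0 and 844 with 1 stage left out, the 844 without HH10, where 1 residual degree of freedom per gene remains. It called 0 of the 9 genes in each of these fits. Without HH10 the adjusted p of TFAP2A was 0.0812 by limma, and the slopes of KRT19 and EPCAM turned negative, at -0.13 and -0.12. With no read counts, what depth can detect is unknown.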
